A study of Mus musculus with 13 samples.

Results

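The 3′ J genes are the joining segments of the T cell receptor α-chain (TCRα) locus that lie nearest to Trac, the gene for the constant region. They were taken here as every TRAJ gene with a number of 20 or less except TRAJ12, TRAJ15 and TRAJ18. A clonotype is one CDR3 base sequence, the junction of the chain, joined to its V and J gene. It was called functional when its CDR3 was read through without a stop or frameshift and out-of-frame when its length was not a multiple of 3. The 13 tables held 17252 such 3′ J clonotypes among 89799 functional and out-of-frame TRAJ clonotypes, 15262 of 78433 functional and 1990 of 11366 out-of-frame. They used 10 of the 46 TRAJ genes seen, namely TRAJ2, TRAJ4, TRAJ5, TRAJ6, TRAJ7, TRAJ9, TRAJ11, TRAJ13, TRAJ16 and TRAJ17. TRAJ1, TRAJ3, TRAJ8, TRAJ10, TRAJ14, TRAJ19 and TRAJ20 had 0 clonotypes. Of these the annotation lists TRAJ1, TRAJ8 and TRAJ14 as pseudogenes, and the name TRAJ10 was not matched in it. The member nearest to the upper limit was TRAJ17, with 2.83% of functional clonotypes, and outside it lay TRAJ18, which the rule leaves out, with 2.22% and TRAJ21 with 5.44%.

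All samples came from male C57BL/6 mice of the genotype Foxp3LSL/yCd4creERT2, whose Foxp3 gene, encoding the transcription factor that defines regulatory T (Treg) cells, carries a stop cassette that keeps it silent. Tamoxifen-inducible Cre, expressed from the Cd4 locus, was activated on postnatal day 14 by 4-hydroxytamoxifen (4-OHT), which removed the cassette and restored Foxp3 in cells that had lacked it. GFP-marked rescued Treg cells of spleen and lymph nodes were collected 1.5 months (n = 2, 8 weeks old), 3 months (n = 4, 3.5 months old), 5 months (n = 2, 5.5 months old) or 7 months (n = 5, 7.5 months old) later, and every group carried both alleles and had received 4-OHT. The labels number the samples of a group as replicates without naming animals, so exact p-values measure the spread between these samples. Those of edgeR also rest on a spread estimate shared over all genes or families of a fit, so their very small values are not a measure of sample spread alone. Clonotype tables hold no marker genes, so the cell type could not be checked in them.

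The α-chain gene is assembled in the thymus by joining a V to a J segment, and the same allele can be rearranged again. Each later joining uses a V segment further upstream and a J segment further downstream, which deletes what lay between. Rearrangements therefore begin at the V genes nearest to the J cluster and at the 5′ J genes, and the 3′ J genes are the end reached by late secondary rearrangements. An out-of-frame allele encodes no receptor chain but can be transcribed beside a functional one.

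The 10 genes lie on chromosome 14 of GRCm38 on the plus strand, from chr14:54201775-54201837 (TRAJ17) to chr14:54217836-54217901 (TRAJ2), that is 18.7 to 2.62 kb upstream of Trac. The germline sequences of 4 of them, from GENCODE M21, are shown because their shares differed most between functional and out-of-frame clonotypes. Capitals mark the bases that a CDR3 can hold, and the lower-case bases follow it.

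TRAJ16 (chr14:54203134-54203194): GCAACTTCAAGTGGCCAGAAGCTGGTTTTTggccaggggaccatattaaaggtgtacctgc

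TRAJ2 (chr14:54217836-54217901): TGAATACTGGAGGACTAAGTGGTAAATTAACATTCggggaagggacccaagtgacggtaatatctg

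TRAJ9 (chr14:54209393-54209450): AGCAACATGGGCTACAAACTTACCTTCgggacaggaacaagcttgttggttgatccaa

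TRAJ13 (chr14:54205741-54205797): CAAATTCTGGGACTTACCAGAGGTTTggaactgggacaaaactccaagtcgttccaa

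TRAJ13 stood apart from the other 3′ J genes before any comparison. Of its 3288 functional clonotypes, 1359 (41.3%) differed from a more abundant TRAJ13 clonotype of the same library and length by a single change, T15G, counted from the first base of the gene (chr14:54205755). The share ran from 37.4% to 44.2% of TRAJ13 clonotypes in the 13 samples, and at the median such a near-copy held 17.8% of the counts of its larger partner. With substitutions at any base of the J-encoded part, near-copies made up 45.7% of TRAJ13 clonotypes but 1.49% to 5.19% of those of the other 9 genes, against a median of 2.74% over 43 J genes. TRAJ15, TRAJ21 and TRAJ35, which are no members, were the other genes above 20%. Among out-of-frame clonotypes, near-copies made up 8.09% with 3′ J genes and 19.5% with other J genes. Values without near-copies are given below for the calls they changed and for several other results.

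The 13 samples held 509818 to 936831 counts each, and 977 to 1482 functional and 116 to 199 out-of-frame 3′ J clonotypes. The median functional 3′ J clonotype was counted 29.5 to 102 times per sample. The sets of 3′ J clonotypes of 2 pairs of libraries overlapped more than the rest, 3 months replicate 4 with 5 months replicate 1 (6.26% of their joint clonotypes) and with 1.5 months replicate 1 (4.74%), against a median of 1.45% over 78 pairs.

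TRAJ13 was the most used and TRAJ2 the least used 3′ J gene, in an order that the near-copies changed at the top. TRAJ13 took 4.21% ± 0.432 (SD, n = 13) of functional TRA clonotypes, TRAJ9 3.00% ± 0.263, TRAJ17 2.83% ± 0.249, TRAJ6 2.12% ± 0.249, TRAJ4 1.81% ± 0.172 and TRAJ7 1.69% ± 0.169. TRAJ16 followed with 1.25% ± 0.152, TRAJ11 with 1.05% ± 0.137, TRAJ5 with 0.852% ± 0.187 and TRAJ2, the last J gene before Trac with clonotypes here, with 0.702% ± 0.102. The neighbours TRAJ9 and TRAJ17, TRAJ4 and TRAJ7, and TRAJ5 and TRAJ2 lay within their spread of each other. Without near-copies TRAJ13 fell to 2.53% ± 0.246 (SD, n = 13), below TRAJ9 (3.17% ± 0.260) and TRAJ17 (3.08% ± 0.268). By summed counts in place of clonotypes, TRAJ17 was first with 3.49% ± 1.07 (SD, n = 13) and TRAJ9 second with 3.25% ± 0.646, while TRAJ13 held 2.61% ± 0.492.

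**Figure D1:**
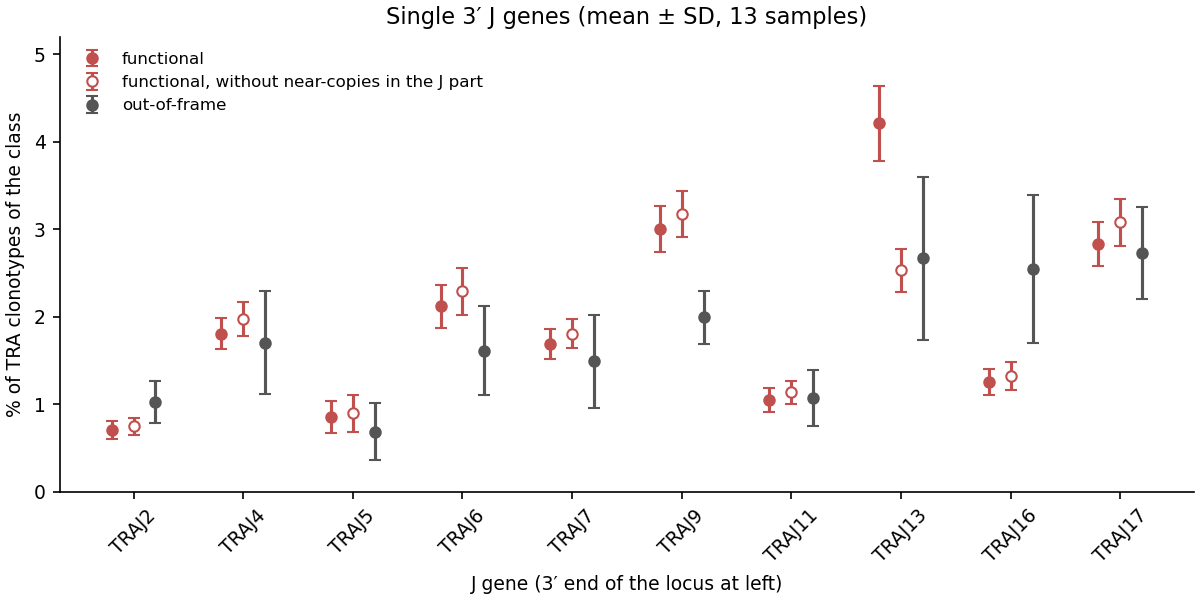
Share of each 3′ J gene (x axis, 3′ end at left) among functional and out-of-frame TRA clonotypes (y axis, percent); points are means and bars SDs over 13 samples, and open points leave out near-copies with 1 substitution in the J part. TRAJ13 drops from 4.21% to 2.53% without near-copies, and TRAJ16 lies at 1.25% among functional but 2.55% among out-of-frame clonotypes.

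The comparison of functional with out-of-frame clonotypes sets chains that can be made into receptors against those that cannot. Of the 10 genes, TRAJ16 and TRAJ2 were lower and TRAJ13 and TRAJ9 higher among functional clonotypes (edgeR quasi-likelihood test with the library as a block, adjusted over 43 J genes). These 2 higher of 10 stand beside 27.9% of all J genes called higher, and the 2 lower of 10 beside 18.6%, shares that lay near the background. TRAJ16 took 0.877% to 3.72% of out-of-frame clonotypes (2.55% ± 0.842, SD, n = 13) but 1.03% to 1.56% of functional ones, a log2 fold change of -1.22 ± 0.122 (SE, adjusted p = 3.69e-17). It was smaller among the more abundant clonotypes, at -0.91 with at least 2 counts and -0.61 with at least 10 (edgeR adjusted p = 4.98e-10 and 3.30e-04). In 12 of 13 libraries its out-of-frame share was the higher, the exception being 5 months replicate 2. TRAJ2 took 1.03% ± 0.239 of out-of-frame and 0.702% ± 0.102 of functional clonotypes, the out-of-frame share being the higher in 13 of 13 libraries (log2 fold change -0.72 ± 0.156, adjusted p = 3.96e-05). TRAJ9 took 1.99% ± 0.301 of out-of-frame and 3.00% ± 0.263 of functional clonotypes, the functional share being the higher in 13 of 13 libraries (log2 fold change 0.39 ± 0.102, adjusted p = 5.66e-04). Its ranges over libraries nearly touched, 1.29% to 2.448% out-of-frame and 2.453% to 3.38% functional. The log2 fold change of TRAJ13 was 0.47 ± 0.10 (adjusted p = 3.50e-05). Without near-copies it was 0.23 in the same direction and did not pass (adjusted p = 0.0801). The other 6 members, TRAJ4, TRAJ5, TRAJ6, TRAJ7, TRAJ11 and TRAJ17, had log2 fold changes between -0.22 and 0.21 that did not pass the test, and the median was -0.08 over the 10 members and 0.04 over 43 genes. With library totals in place of TMM scaling the median of all genes moved by 0.19 on the log2 scale and the calls over all genes went from 12 higher and 8 lower to 21 higher and 7 lower, the 4 named members keeping their direction.

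The 3′ J genes together took 19.5% ± 0.836 (SD, n = 13) of functional and 17.5% ± 1.37 of out-of-frame clonotypes. The functional share was the higher in 11 of 13 libraries, by 1.98 ± 1.60 percentage points (SD, exact sign-flip test, p = 0.00195, Benjamini-Hochberg adjusted over 8 comparisons 0.00521). Of 4 alternatives added after the data were seen, 1 kept the call, at 2.16 points (exact p = 0.00171) without out-of-frame clonotypes 1 inserted or deleted base from a larger functional one. The other 3 did not. Without near-copies the difference was -0.54 points (exact p = 0.268) and without TRAJ13 0.70 points (exact p = 0.0854). TRAJ32, a middle J gene, held 1916 of the 11366 out-of-frame clonotypes (16.9%), the next gene holding 528. Near-copies made up 59.8% of these TRAJ32 clonotypes, and without near-copies TRAJ32 held 771 of 9378 (8.22%) and the next gene 513, so leaving out TRAJ32 and leaving out near-copies remove many of the same clonotypes. Without TRAJ32 the shares were 19.996% ± 0.847 functional and 21.0% ± 1.59 out-of-frame (difference -1.02 points, exact p = 0.0791, functional lower in 9 of 13).

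The V partners of 3′ J genes differed from those of the other J genes. Functional 3′ J clonotypes almost lacked V genes near the J cluster, TRAV17, TRAV19 and TRAV21, with the list of TRAV17 to TRAV21 in 39 of 15262 clonotypes against 2354 of 63171 with other J genes. In every library the proximal V share was lower with 3′ J genes, 0.266% ± 0.206 (SD, n = 13) against 3.71% ± 0.354, and the ranges were 0% to 0.800% and 3.02% to 4.26% (difference -3.44 points, exact sign-flip p = 2.44e-04, the smallest that 8192 arrangements allow). Out-of-frame clonotypes differed in the same direction, 4 of 1990 against 280 of 9376. Their proximal share with 3′ J genes was 0% in 11 of 13 libraries and 1.205% and 1.515% in 1.5 months replicate 1 and 7 months replicate 1. It averaged 0.209% ± 0.515 against 2.98% ± 0.759 with other J genes (difference -2.77 points, exact sign-flip p = 2.44e-04). The size of this difference was not tested against that among functional clonotypes. With middle J genes only (TRAJ24 to TRAJ40) as the comparison the differences were -1.22 points among functional and -1.44 points among out-of-frame clonotypes, and with 5′ J genes only (TRAJ41 and higher) -12.4 and -11.0 points (exact p of 4.88e-04 or less for each).

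Along the locus the proximal V share rose with the J number, from 0.256% pooled over 3′ J clonotypes to 33.4% for TRAJ58. Spearman's rho across 43 J genes was 0.91, as a description of genes that share libraries, and 0.01 within the 10 members, where the share lay between 0% for TRAJ5 and 0.615% for TRAJ16. The low share was not particular to the members. It was 0.229% ± 0.318 for TRAJ12, TRAJ15 and TRAJ18 and 0.287% ± 0.222 for TRAJ21 to TRAJ23, against 1.49% ± 0.239 for middle and 12.6% ± 0.878 for 5′ J genes (SD, n = 13 each).

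**Figure D2:**
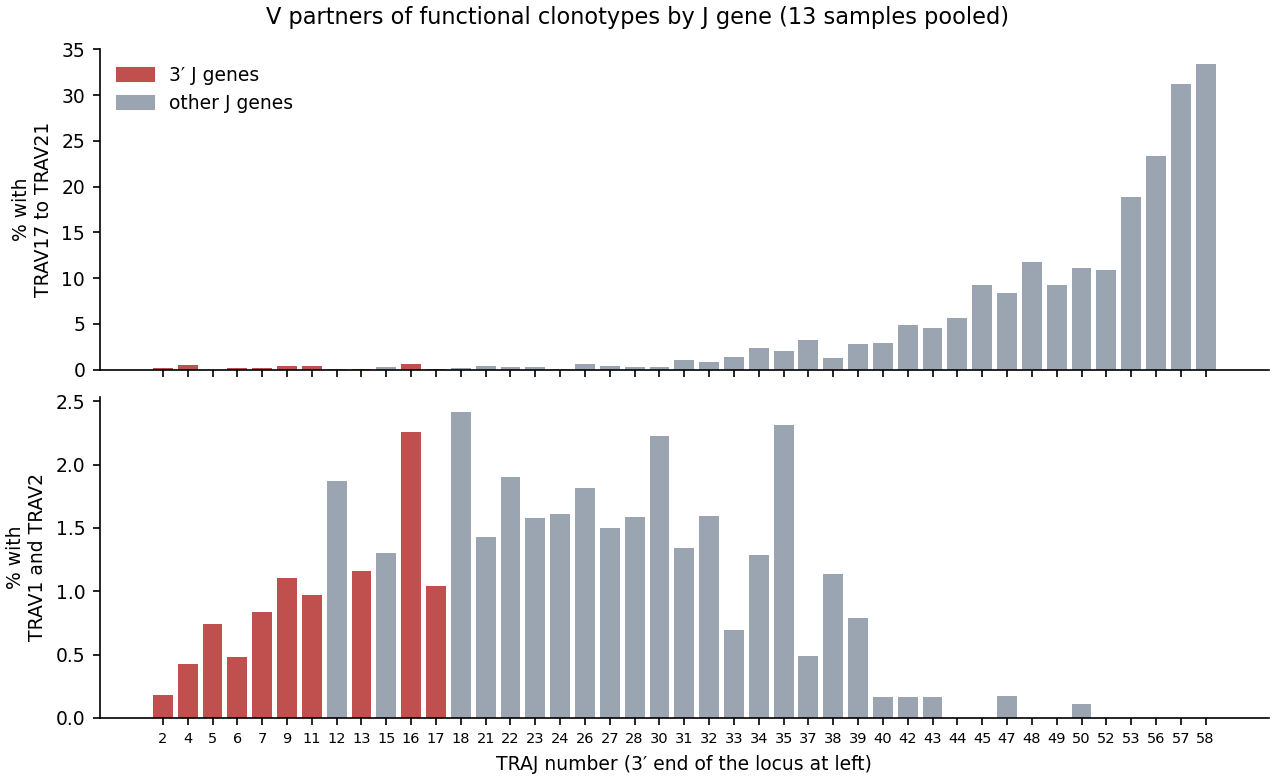
Percent of functional clonotypes (y axes, 13 samples pooled) that use TRAV17 to TRAV21, above, or TRAV1 and TRAV2, below, for each J gene with at least 100 functional clonotypes (x axis, 3′ end at left); 3′ J genes are red. Proximal V genes reach 33.4% with TRAJ58 and stay under 1% with every 3′ J gene, and the distal V share within the 3′ J genes runs from 0.181% for TRAJ2 to 2.25% for TRAJ16.

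Among single families, TRAV21 was found in 6 functional 3′ J clonotypes against 874 with other J genes (0.0424% ± 0.0726 and 1.37% ± 0.179 per library, log2 fold change -4.97 ± 0.329, SE). TRAV19 was found in 8 against 671 (log2 fold change -4.22 ± 0.324) and TRAV17 in 25 against 768 (-2.84 ± 0.243). Their adjusted p-values were 5.81e-35, 2.02e-28 and 4.12e-24 (edgeR quasi-likelihood test, 19 families), and all 3 families were lower with 3′ J genes in 13 of 13 libraries. With 1 library left out, the edgeR adjusted p of TRAV21 ran from 1.63e-34 to 1.67e-15 and its log2 fold change from -5.40 to -4.78. TRAV18 and TRAV20 had 0 functional 3′ J clonotypes, which allows a share of up to 0.0197%, and 27 and 14 with other J genes. TRAV23, which lies nearer still to the J cluster and is not in the list, had 0 functional clonotypes with 3′ J and 2 with other J genes. Among out-of-frame clonotypes TRAV21 had 0 of 1990, which allows up to 0.151%, against 90 of 9376 (at least 6.37-fold lower, floor over the pooled samples), TRAV19 had 1 against 123 and TRAV17 3 against 53, counts too low for the out-of-frame fit to test.

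Beyond these families the differences were smaller. In all, 4 of 19 families were called higher (21.1%) and 8 lower (42.1%) with 3′ J genes. TRAV9 took 4.01% ± 1.03 of 3′ J and 5.21% ± 0.757 of other functional clonotypes (log2 fold change -0.37 ± 0.0723, adjusted p = 1.91e-06) and was lower in 12 of 13 libraries, but against 5′ J genes only it did not pass (-0.19, adjusted p = 0.0948). TRAV12 took 14.0% ± 1.15 against 10.9% ± 0.487 (log2 fold change 0.39 ± 0.0368, adjusted p = 5.08e-21). It did not overlap between 3′ J, at 12.2% or more, and other J genes, at 11.5% or less. Of the 19 families, only TRAV17, TRAV19 and TRAV21 also had separate ranges. TRAV7, the family with the most 3′ J clonotypes (3304), took 21.7% ± 1.38 against 18.2% ± 0.649 (0.28 ± 0.0267, adjusted p = 3.07e-20). TRAV12 and TRAV7 were each higher with 3′ J genes in 13 of 13 libraries. Against 5′ J genes only the log2 fold changes were 0.70 for TRAV12 and 0.90 for TRAV7, and against middle J genes only 0.38 and 0.16. TRAV3 was higher in 12 of 13, with 6.51% ± 0.839 against 5.33% ± 0.376 (0.31 ± 0.0607, adjusted p = 1.91e-06). TRAV2 passed with 65 against 192 clonotypes (0.50 ± 0.219, adjusted p = 0.0352) but was higher in 7 of 13 libraries and lost its call under DESeq2 (adjusted p = 0.433) and without near-copies (0.235). Without 7 months replicate 3 the families called lower went from 8 to 5.

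The V genes farthest from the J cluster, TRAV1 and TRAV2, were not more frequent with the 3′ J genes as a list. They made up 0.980% ± 0.320 of functional 3′ J clonotypes and 1.11% ± 0.174 of the others (difference -0.13 points, exact sign-flip p = 0.239, lower in 9 of 13 libraries), and leaving out 7 months replicate 4 gave -0.19 points with an exact p of 0.0449. TRAV1 alone was lower with 3′ J genes, 83 clonotypes against 505 (log2 fold change -0.53 ± 0.186, edgeR adjusted p = 0.00930), while the higher TRAV2 share did not hold under several alternatives (above). Against 5′ J genes only, where TRAV1 and TRAV2 made up 0.0520% ± 0.0621, the 3′ J share was higher by 0.93 points (exact p = 2.44e-04). The functional distal share was 1.71% ± 0.693 for TRAJ12, TRAJ15 and TRAJ18 and 1.61% ± 0.556 for TRAJ21 to TRAJ23. For middle J genes it was 1.26% ± 0.340 (SD, n = 13 each). Among out-of-frame clonotypes the distal share was 3.56% ± 1.69 with 3′ J and 3.96% ± 0.911 with other J genes (SD, n = 13, exact sign-flip p = 0.534). Within the members the functional distal share was lowest for TRAJ2 with 1 of 553 clonotypes, TRAJ4 with 6 of 1413 and TRAJ6 with 8 of 1654, and highest for TRAJ16 with 22 of 976.

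Among out-of-frame clonotypes 1 of 15 families was called higher (6.67%) and 3 lower (20%) with 3′ J genes. TRAV3 took 17.8% ± 2.84 of 3′ J and 11.7% ± 1.34 of other out-of-frame clonotypes (log2 fold change 0.57 ± 0.105, adjusted p = 3.25e-06, higher in 13 of 13 libraries). TRAV10 (-1.0 ± 0.353), TRAV5 (-0.84 ± 0.308) and TRAV4 (-0.41 ± 0.164) passed with adjusted p-values of 0.0346, 0.0346 and 0.0463. These 3 calls were unstable, with 0 lower families left without TRAJ32 and 0 to 1 when any of 12 of the 13 libraries, each but 1.5 months replicate 1, was left out.

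**Figure D3:**
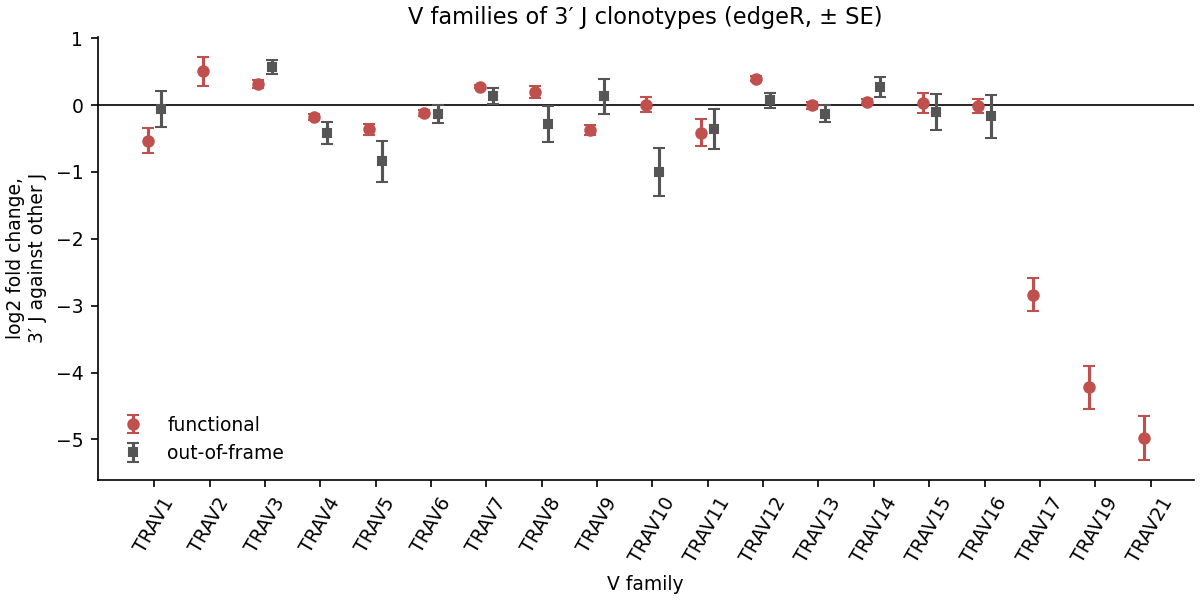
Log2 fold change of each V family (x axis) in 3′ J against other J clonotypes (y axis) among functional (circles, 19 families) and out-of-frame clonotypes (squares, 15 of these families), with bars of 1 SE from edgeR. TRAV17, TRAV19 and TRAV21 lie between -2.84 and -4.97 and all other families between -1.0 and 0.57.

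CDR3s of functional 3′ J clonotypes were slightly longer than those of other J genes, 40.6 ± 0.0981 against 40.5 ± 0.0920 bases (SD, n = 13, difference 0.145 bases, exact sign-flip p = 0.00415, adjusted 0.00830, longer in 11 of 13 libraries). By the positions deposited with each clonotype they held 11.2 V-encoded, 2.10 inserted and 27.3 J-encoded bases on average, against 11.6, 2.17 and 26.7 with other J genes. In 24.8% of functional 3′ J clonotypes the deposited J part reached beyond the best ungapped match to the germline J, against 21.1% with other J genes. Matched to the germline, the J part had 26.4 bases in 3′ J and 26.1 in other J clonotypes, the longer one with 3′ J genes as before. The difference was 0.291 bases weighted by counts (exact p = 0.00293) and 0.278 without TRAJ32 (exact p = 2.44e-04). It was 0.344 bases without near-copies and 0.699 bases without TRAJ13, the 3′ J gene with the shortest CDR3-coding part. Against 5′ J genes only it was -0.856 bases and against middle J genes only 0.487 bases (exact p = 2.44e-04 for each of these 4). The 3′ J genes thus lay between the middle and the 5′ J genes in CDR3 length. Their neighbours TRAJ12, TRAJ15 and TRAJ18 averaged 40.5 bases and TRAJ21 to TRAJ23 39.9, without a test of these parts.

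Length differed among the members far more than between the parts, and it followed the germline J segment. TRAJ2, whose CDR3 part has 35 bases, gave CDR3s of 45.9 ± 0.636 bases (SD, n = 13) or 15.3 codons, and TRAJ13, with 26 bases, gave 38.6 ± 0.269 bases or 12.9 codons. The means of TRAJ9 (27 germline bases) and TRAJ7 (28 germline bases) were 39.0 ± 0.190 and 39.8 ± 0.338, and those of TRAJ17 and TRAJ4 (32 germline bases each) 42.3 ± 0.654 and 42.1 ± 0.394. Spearman's rho between germline and mean CDR3 length was 0.97 over the 10 genes, as a description. Most bases of a CDR3 are J-encoded, so a close relation was largely set in advance.

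**Figure D4:**
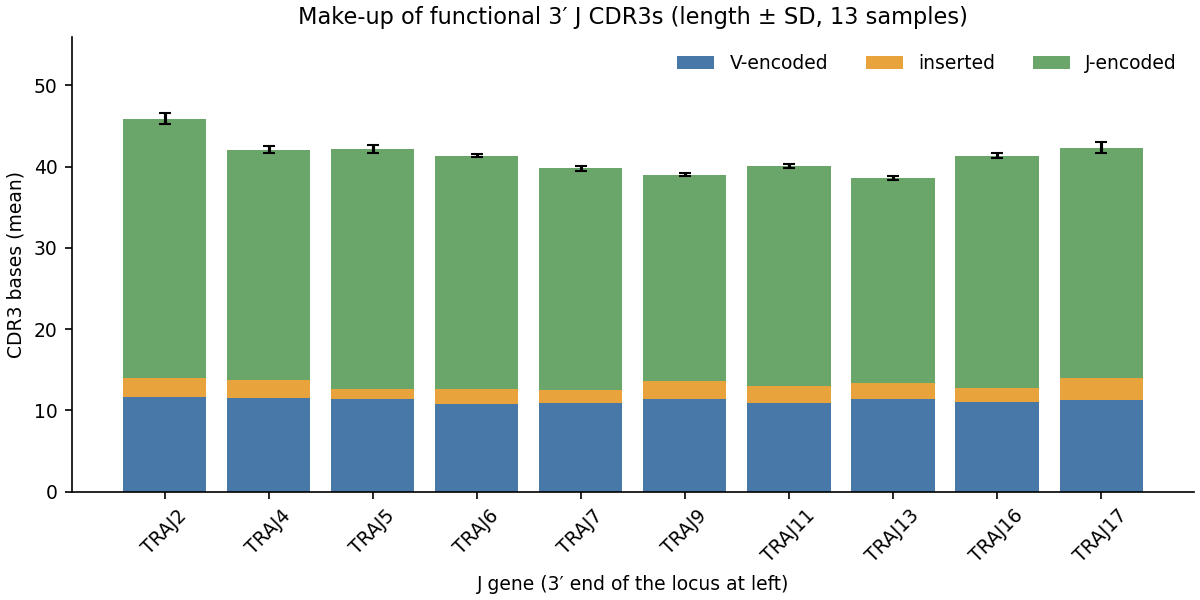
Mean number of V-encoded, inserted and J-encoded bases (y axis, stacked) in the CDR3 of functional clonotypes of each 3′ J gene (x axis, 3′ end at left), as the deposited positions give them, with the SD of the total length over 13 samples. Total length runs from 38.6 bases for TRAJ13 to 45.9 for TRAJ2, and J-encoded bases from 25.2 to 31.98, while V-encoded bases lie between 10.7 and 11.7.

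Inserted bases are those that neither the V nor the J segment encodes, added by the enzyme TdT during joining or by hairpin opening. By the deposited positions, functional 3′ J clonotypes held 2.10 ± 0.0893 (SD, n = 13) against 2.17 ± 0.0550 with other J genes (difference -0.0732, exact sign-flip p = 0.0198, adjusted 0.0316, fewer in 11 of 13 libraries), and 32.8% ± 1.93 against 30.5% ± 1.13 had 0 inserted bases. The call was lost without near-copies (-0.0667, exact p = 0.0596) and without TRAJ13 (-0.0468, exact p = 0.189), and with the J part matched to the germline, an alternative added after the data were seen, the means were 2.49 ± 0.101 and 2.48 ± 0.0501 (difference 0.0149, exact p = 0.628). By the deposited positions the difference was -0.229 against middle J genes only (exact p = 2.44e-04) and 0.0280 against 5′ J genes only (exact p = 0.451). TRAJ12, TRAJ15 and TRAJ18 held 1.90 and TRAJ21 to TRAJ23 2.14 inserted bases on average. Among the members TRAJ17 held 2.76 ± 0.614 and TRAJ5 1.33 ± 0.261 inserted bases by the deposited positions, and 3.02 ± 0.711 and 1.87 ± 0.332 with the J part matched to the germline. TRAJ5 clonotypes without an inserted base made up 42.7% and 29.4% by these 2 measures.

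Clone size was compared as the mean log2 count of a functional clonotype, 4.77 ± 0.541 for 3′ J and 4.88 ± 0.465 for other J genes (SD, n = 13). The 3′ J mean was lower in 10 of 13 libraries, with a difference of -0.112 on the log2 scale (exact sign-flip p = 0.0239, adjusted 0.0319). Without TRAJ13 the difference was 0.0444 in the other direction (exact p = 0.432), and without near-copies it was -0.122 (exact p = 0.0173). It was -0.0467 with at least 2 counts (exact p = 0.0464) and -0.0637 with at least 10 (exact p = 9.77e-04). Against middle J genes only it was -0.207 (exact p = 7.32e-04) and against 5′ J genes only -0.152 (exact p = 0.0103). The mean log2 count of TRAJ13 clonotypes minus that of their library was -0.641 ± 0.269 (SD, n = 13), below 0 in 13 of 13 libraries, and -0.297 ± 0.313 without near-copies, where TRAJ11 lay as low at -0.317 ± 0.326, below 0 in 10 of 13 libraries. A near-copy is by definition the smaller of its pair, so leaving near-copies out bears on clone size itself. TRAJ7 clonotypes lay 0.329 ± 0.379 and TRAJ6 clonotypes 0.193 ± 0.294 above the mean, and 0.172 ± 0.405 and 0.0390 ± 0.289 above it without near-copies. TRAJ7 was below the mean in 3 of 13 libraries with and without near-copies, and TRAJ6 in 3 and 4. Expanded clonotypes, those above 0.1% of functional counts, made up 1.62% ± 0.599 of 3′ J and 1.63% ± 0.518 of other functional clonotypes.

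The most abundant functional 3′ J clonotype of each time point is printed below, in lower case with the bases that match the germline J in capitals, and none of the 4 had an inserted base. The 1.5-month clonotype joined TRAV8D-2 (chr14:53042428-53042891) to TRAJ9 and held 5799 counts, 0.995% of the functional counts of 1.5 months replicate 2 (95% Wilson interval 0.970% to 1.02%). At 3 months a TRAV7-4 (chr14:53461099-53461738) and TRAJ17 clonotype held 1.15% (1.13% to 1.18%) of 3 months replicate 3, and at 5 months another pairing of both genes held 0.739% (0.716% to 0.762%) of 5 months replicate 1. At 7 months a TRAV4N-4 (chr14:53302036-53302559) and TRAJ17 clonotype held 9443 counts, 1.63% (1.59% to 1.66%) of 7 months replicate 1. All but the 5-month clonotype, which ranked 6, were the largest functional clonotype of their library, and outside it each had at most 1 count in another library. TRAJ17 was thus the J gene of 3 of the 4. Intervals and floors cover counting error only, and single V genes of a duplicated family are near-identical, so the V names within a family are uncertain.

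1.5 months, TRAV8D-2 and TRAJ9: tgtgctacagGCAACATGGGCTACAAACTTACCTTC

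3 months, TRAV7-4 and TRAJ17: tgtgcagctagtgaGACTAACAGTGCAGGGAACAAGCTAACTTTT

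5 months, TRAV7-4 and TRAJ17: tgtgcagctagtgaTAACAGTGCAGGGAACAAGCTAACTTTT

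7 months, TRAV4N-4 and TRAJ17: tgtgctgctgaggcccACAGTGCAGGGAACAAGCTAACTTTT

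Sharing between samples was counted by CDR3 amino-acid sequence. Of 8557 such 3′ J sequences, 6147 (71.8%) were found in a single sample and 11 (0.129%) in all 13, against 70.9% and 0.164% of 32876 with other J genes. The 11 shared sequences used TRAJ13 (4), TRAJ6 (2), TRAJ16 (2), TRAJ7, TRAJ9 and TRAJ17 (1 each), held 0.697% ± 0.312 of functional counts (SD, n = 13) and had 0 inserted bases in 86.9% of their clonotypes by the deposited positions and in 70.8% with the J part matched to the germline. Without near-copies 8 remained in all 13. The 3 with the highest mean share, a TRAJ13, a TRAJ7 and a TRAJ17 sequence, were each encoded by 8 to 10 nucleotide sequences. Each is printed in its most widely found form, present in 11, 6 and 6 of the 13 samples, with the bases that match the germline J in capitals. The TRAJ13 sequence took 0.0559% at the lowest, 0.142% at the median and 0.461% at the highest of functional counts over the 13 samples, and its germline T15 was unchanged. The TRAJ7 sequence ran from 3.68e-04% to 0.304% with a median of 0.0633%, and the TRAJ17 sequence from 1.84e-04% to 0.463% with a median of 0.0444%, so both were near the smallest measurable share in some samples.

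TRAJ13, with TRAV14D-1: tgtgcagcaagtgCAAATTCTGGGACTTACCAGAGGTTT

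TRAJ7, with TRAV14D-1: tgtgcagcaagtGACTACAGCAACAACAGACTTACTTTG

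TRAJ17, with TRAV4D-4: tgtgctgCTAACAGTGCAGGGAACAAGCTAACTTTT

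The time course asked whether the place of 3′ J clonotypes in the repertoire moved while the rescued cells persisted, and no measure passed the test. The 3′ J share of functional clonotypes was 18.5% and 18.9% at 1.5 months, 19.2%, 18.9%, 19.0% and 19.9% at 3 months, 20.2% and 20.7% at 5 months, and 20.04%, 21.2%, 18.5%, 19.4% and 19.1% at 7 months. Both 5-month samples lay above all samples of 1.5 and 3 months, and the 7-month samples covered the range of all others. The differences from 1.5 months were 0.51 points at 3 months, 1.72 points at 5 months and 0.90 points at 7 months against a pooled SD of 0.748 (exact permutation test that enumerated every arrangement, corrected over the 3 contrasts, p = 0.758, 0.10 and 0.357, and adjusted over 15 comparisons 0.996, 0.833 and 0.996). The 5-month difference had an exact p of 0.0266 without 7 months replicate 2. The out-of-frame share was 16.4% ± 1.46 (n = 2) at 1.5 months and 18.1% ± 1.45 (n = 5) at 7 months (exact permutation test, p = 0.388).

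**Figure D5:**
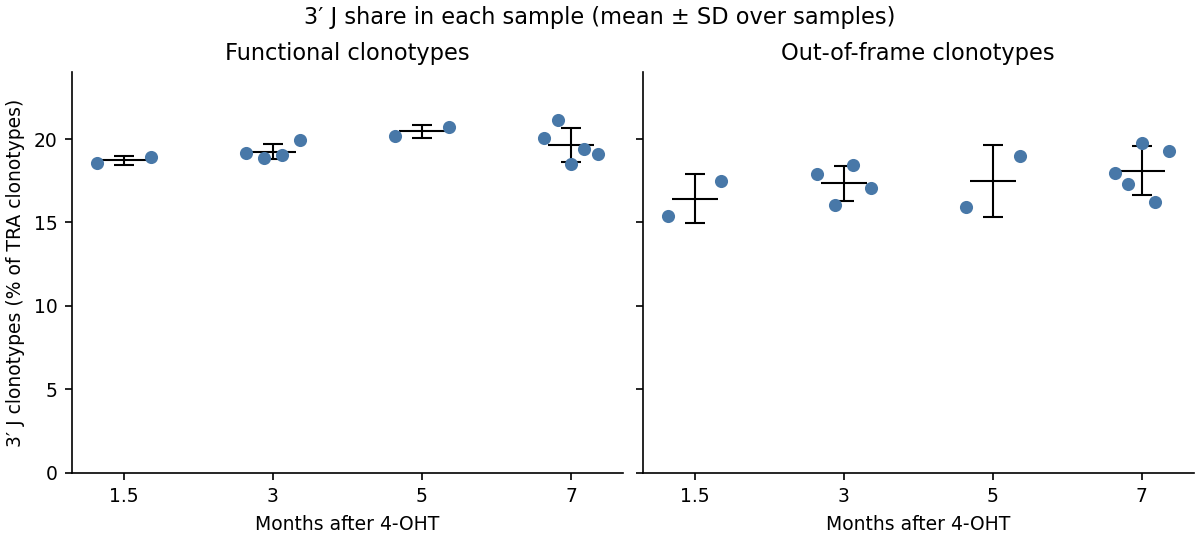
Share of 3′ J clonotypes among functional (left) and out-of-frame (right) TRA clonotypes (y axes, percent) by months after 4-OHT (x axes); each point is a sample, and bars give the mean and SD of a group of 2, 4, 2 or 5 samples. Functional shares lie between 18.5% and 21.2% and out-of-frame shares between 15.4% and 19.8%, and among functional clonotypes both 5-month samples lie above all samples of 1.5 and 3 months.

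CDR3 length and inserted bases of 3′ J clonotypes stayed within 0.03 and 0.08 bases of their 1.5-month means of 40.6 and 2.13, with exact permutation p-values of 0.607 or more. The size of 3′ J relative to other clonotypes was -0.221 ± 0.125 (log2, SD, n = 2) at 1.5 months, 0.0150 ± 0.144 (n = 4) at 3 months, -0.0281 ± 0.00528 (n = 2) at 5 months and -0.204 ± 0.112 (n = 5) at 7 months. The 3-month difference, 0.236, gave p = 0.111 in the exact permutation test and 0.0185 without 3 months replicate 1. With at least 2 or 10 counts it was 0.0929 and 0.0762 (exact permutation p = 0.232 and 0.238).

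For single J genes, 0 of 43 (0%) passed at 7 against 1.5 months and 0 of 43 (0%) at 7 against 3 months in edgeR's quasi-likelihood test, and 0 of 44 in either contrast in DESeq2. At an unadjusted p under 0.05 the counts were 0 and 2 in edgeR and 0 and 1 in DESeq2. TRAJ5 had the smallest p of the members in both contrasts. Its share of functional clonotypes was 0.939% and 0.817% at 1.5 months, 0.943%, 0.753%, 0.933% and 1.13% at 3 months, 1.26% and 0.788% at 5 months, and 0.593%, 0.662%, 0.801%, 0.755% and 0.702% at 7 months. The 7-month values overlapped those of 3 months (log2 fold change -0.44 ± 0.168, edgeR adjusted p = 0.488). Against 1.5 months the log2 fold change was -0.32 ± 0.203 (edgeR adjusted p = 0.978). Next by p were TRAJ11 at 7 against 3 months (0.20 ± 0.148, adjusted p = 0.801) and TRAJ9 at 7 against 1.5 months (0.12 ± 0.0946, adjusted p = 0.978). Both contrasts share the 7-month samples. The median log2 fold change of the 10 members was 0.09 and 0.05, and that of all 43 genes 0.00 and 0.01.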

How the data were processed

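TCRα transcripts of 13 samples were amplified by 5′ RACE and sequenced, and the authors assembled clonotypes with MiXCR and processed them with VDJtools. Its first step discards likely errors, such as a clonotype 1 mismatch from another and under 0.05 of its size, and 0 of 9784 near-copies here fell below that ratio. A further step is described that discards clonotypes with a stop codon or frameshift, but the deposited tables still hold 11366 out-of-frame clonotypes, on which the out-of-frame comparisons rest. Per the labels the genome build is GRCm38. The deposited tables give each clonotype a raw count, its share of the sample as a fraction (not used) and positions of the V and J parts in the CDR3. Whether counts are reads or molecules is not given in the sources used here.

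Members, gene lists and tests were chosen with earlier results of these data known. Each V and J usage test used numbers of clonotypes per library (edgeR 4.0.16 in R 4.3.3, filterByExpr, TMM, quasi-likelihood, SE from the F statistic, threshold 0.05), with V genes pooled by family because duplicated V genes are near-identical. Families share a fixed total, so a difference in a large family shifts the fold changes of the others. Groups were compared with 1.5 months by exact permutation of a pooled-spread statistic, and comparisons within libraries by exact two-sided sign flips over 13 samples (Python 3.11.15, numpy 2.4.6, pandas 2.3.3, scipy 1.17.1, matplotlib 3.10.9). Inserted bases were those between the deposited V end and J start. In an alternative added after the data were seen, the J part was the best ungapped match to the germline J from the 3′ end of the CDR3 (1 a match, -3 a mismatch), which also sets the capitals of printed clonotypes, and 4146 functional clonotypes of J genes without a matched germline sequence were left out of that comparison. The code was tested on simulated data. The text names every member J gene with clonotypes, the members called between functional and out-of-frame clonotypes (with no call over time, the 2 of smallest p), up to 4 V families a direction with the smallest adjusted p under 0.05, the top clonotype of each time point and the 3 most abundant CDR3s of all 13 samples. Alternatives were DESeq2 1.42.0, library totals, no filter, minima of 2 or 10 counts, equal depth at 509446 TRA counts (mean of 10 draws), removal of clonotypes 100 times more abundant in another library, shares or means weighted by counts, only the groups compared, middle or 5′ J genes only, a replicate block and each sample left out. Removal of near-copies, of out-of-frame clonotypes 1 inserted or deleted base from a larger functional one, of TRAJ13 and of TRAJ32 was added after the data were seen. Left out were 109 clonotypes without a TRAJ gene. A near-copy is a clonotype 1 substitution within the J part from a larger one of its library, J gene and length.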

Additional observations from a re-analysis of the deposited data

Results flagged for a closer look

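In-frame 3′ J clonotypes with a stop codon in the CDR3, which no comparison used, numbered 73 over the 13 tables. Their counts exceeded 3, the limit that a count of 0 allows, in 11 of 13 samples and ran from 1 to 204 counts per sample. No sample lay far from the others of its group in the 60 groups of 4 or 5 values tested, where chance gives about 1 in 20, and none of 24 comparisons between time points of the differences within libraries passed an exact permutation test.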

How the results depend on the processing

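Of the 8 comparisons within libraries, the proximal V share, among functional and among out-of-frame clonotypes, kept its direction and its call under every alternative run. Several other results did not, and the cause was not tested. The 3′ J share in functional minus out-of-frame clonotypes was -1.02 points without TRAJ32, -0.536 without near-copies and 0.702 without TRAJ13. The difference in inserted bases was -0.0667 without near-copies, -0.0468 without TRAJ13 and 0.0149 with the J part matched to the germline, and that in clone size was 0.0444 without TRAJ13. Against 5′ J genes only, the distal V share differed by 0.928 points among functional and 3.16 points among out-of-frame clonotypes, CDR3 length by -0.856 bases and inserted bases by 0.0280. Leaving out 1 library at a time gave -0.193 to -0.0810 points for the functional distal V share.

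Over time no difference passed in the main fit. The out-of-frame share at 3 months differed from 1.5 months by -0.139 points with at least 2 counts, -0.637 with at least 10 and -1.46 by summed counts, and by -0.109 to 1.96 with 1 library left out. The 5-month out-of-frame difference then ran from -0.478 to 2.57 points and the 5-month functional one from 1.43 to 2.01. CDR3 length at 5 months differed by -0.0943 bases with at least 2 counts, -0.0102 with at least 10 and -0.00739 with clonotypes more abundant in another library removed, and by -0.0579 to 0.101 with 1 library left out. At 7 months it was 0.00739 with those removed and 0.0183 without near-copies, and with 1 library left out -0.0584 to 0.0162 (-0.0844 to 0.0169 at 3 months). Inserted bases at 7 months differed by -0.0142 and -0.0428 with at least 2 and 10 counts, -0.0144 without TRAJ13, -0.0308 with the J part matched to the germline and -0.0382 to 0.0672 with 1 library left out. Relative clone size at 7 months differed by -0.00414 with at least 2 counts, -0.00152 with clonotypes more abundant in another library removed and -0.0716 to 0.106 with 1 library left out, and at 3 months by 0.148 to 0.325.

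The 3′ J genes called higher among functional clonotypes went from 2 to 1 without near-copies. V families called lower among out-of-frame clonotypes went from 3 to 0 with clonotypes more abundant in another library removed, 1 against middle J genes only, 0 without TRAJ32 and 0 to 2 with 1 library left out. Those called higher went from 1 to 2 against 5′ J genes only and 1 to 2 with 1 library left out. The functional families called lower ran from 5 to 9 with 1 library left out.

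Replicate numbers did not pair the samples, since over 14 same-numbered pairs the correlation of deviations was -0.36 to -0.02 for the 5 measures of the time course and 0.09 on average for J gene shares, with -0.316 for the lowest pair. A replicate block changed no call over time (exact permutation p of 0.138 or more) and turned the 7-month difference in inserted bases to -0.00257. In a pair of groups alone the smallest p was 0.0667 at 3, 0.333 at 5 and 0.0476 at 7 months, so only the last could pass. Out-of-frame values rest on 116 to 199 3′ J clonotypes per library, which limits what single J genes and V families could show there.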
